A study of Mus musculus with 32 samples.

Results

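A set of 10 genes for immune checkpoint and costimulatory molecules, Cd274, Cd80, Cd86, Lgals9, Vsir, Lag3, Havcr2, Sirpa, Cd200r1 and Cd40, were followed in isolated mouse microglia over the course of a tauopathy. They were taken from the table by Entrez number, and all 10 of the 10 listed genes were found among its 18588 genes. The rTg4510 mice carried 2 transgenes, a mutant human 4-repeat tau under a tetracycline-responsive element and a CaMKIIα-driven transactivator that turns it on in forebrain neurons after birth, whereas the WT mice (129/FVB F1) were littermates with neither transgene, so an effect of the tau and one of the transactivator cannot be told apart. All mice were female, and microglia were captured with CD11b MicroBeads at 2, 4, 6 and 8 months of age from the pooled forebrains of 8 to 10 animals per library. Each genotype is represented by 4 libraries at 2 months, 3 at 4 months, 4 at 6 months and 3 at 8 months, 28 in all. Another 4 libraries, replicate 3 of both genotypes at 4 months and replicate 4 of both at 8 months, had failed the sequencing quality control of the authors and entered no comparison below unless named.

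Checkpoint and costimulatory molecules are the second signal of an immune contact: a T cell that meets antigen on a myeloid cell is driven on or held back by pairs of surface proteins on both cells. Cd80 and Cd86 bind CD28 to stimulate and CTLA4 to restrain, while Cd274 (PD-L1) engages the inhibitory receptor PD-1. Galectin-9, the product of Lgals9, binds TIM-3 (Havcr2), and VISTA (Vsir) acts both as a ligand and as a receptor. Sirpa and Cd200r1 are the myeloid receptors for CD47 and CD200, which neurons and other cells carry as signals that restrain microglia and phagocytosis, and Cd40 receives the activating ligand CD40L. Lag3 is best known as an inhibitory receptor of T cells.

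Values are log2 signals, so that a difference of 1 is a change of 2 fold. Each library's median gene lay at 5.63, and the lowest value of a library, its floor, lay between 1.23 and 1.92. Signals may depend on gene length and are compared here between libraries of a gene and not between genes. The marker sums below add several genes on the linear scale, so genes of high signal weigh most in them. Microglial identity was plain in all 28 libraries: 8 microglia markers (P2ry12, Tmem119, Cx3cr1, Csf1r, Aif1, Itgam, Fcrls and Sall1) lay at least 4.09 above the floor, with a summed signal, on the log2 scale, of 14.41 to 14.92 in WT and 13.97 to 14.65 in rTg4510. Of 8 T cell markers, 3 were in the table (Cd3e, Cd5 and Lck), with sums of 3.79 to 5.80 in WT and 4.58 to 6.56 in rTg4510, and Cd3e lay within 1 of the floor in 13 of the 28 libraries.

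Genotypes were compared at each age with a linear model (limma, no moderation of the variance) over all 8 groups. A gene was called when its Benjamini-Hochberg FDR over the 18588 genes was under 0.05 and its change above 1.5 fold. Of the 10 genes, Cd274 and Lag3 were called at every age, both higher in rTg4510, and 0 were called lower at any age. The 2 called genes stood against 1.98% of all genes called at 2 months, 13.8% at 4 months, 19.8% at 6 months and 15.9% at 8 months, so that 2 of 10 was about the share of the whole table from 4 months on. With the FDR alone, 3, 4, 5 and 5 of the 10 genes passed at 2, 4, 6 and 8 months, beside 6.03%, 23.2%, 34.1% and 25.7% of all genes. The median absolute log2 difference of the 10 genes was 0.24, 0.28, 0.30 and 0.30 at the 4 ages, and that of all genes 0.16, 0.29, 0.32 and 0.31.

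**Figure D1:**
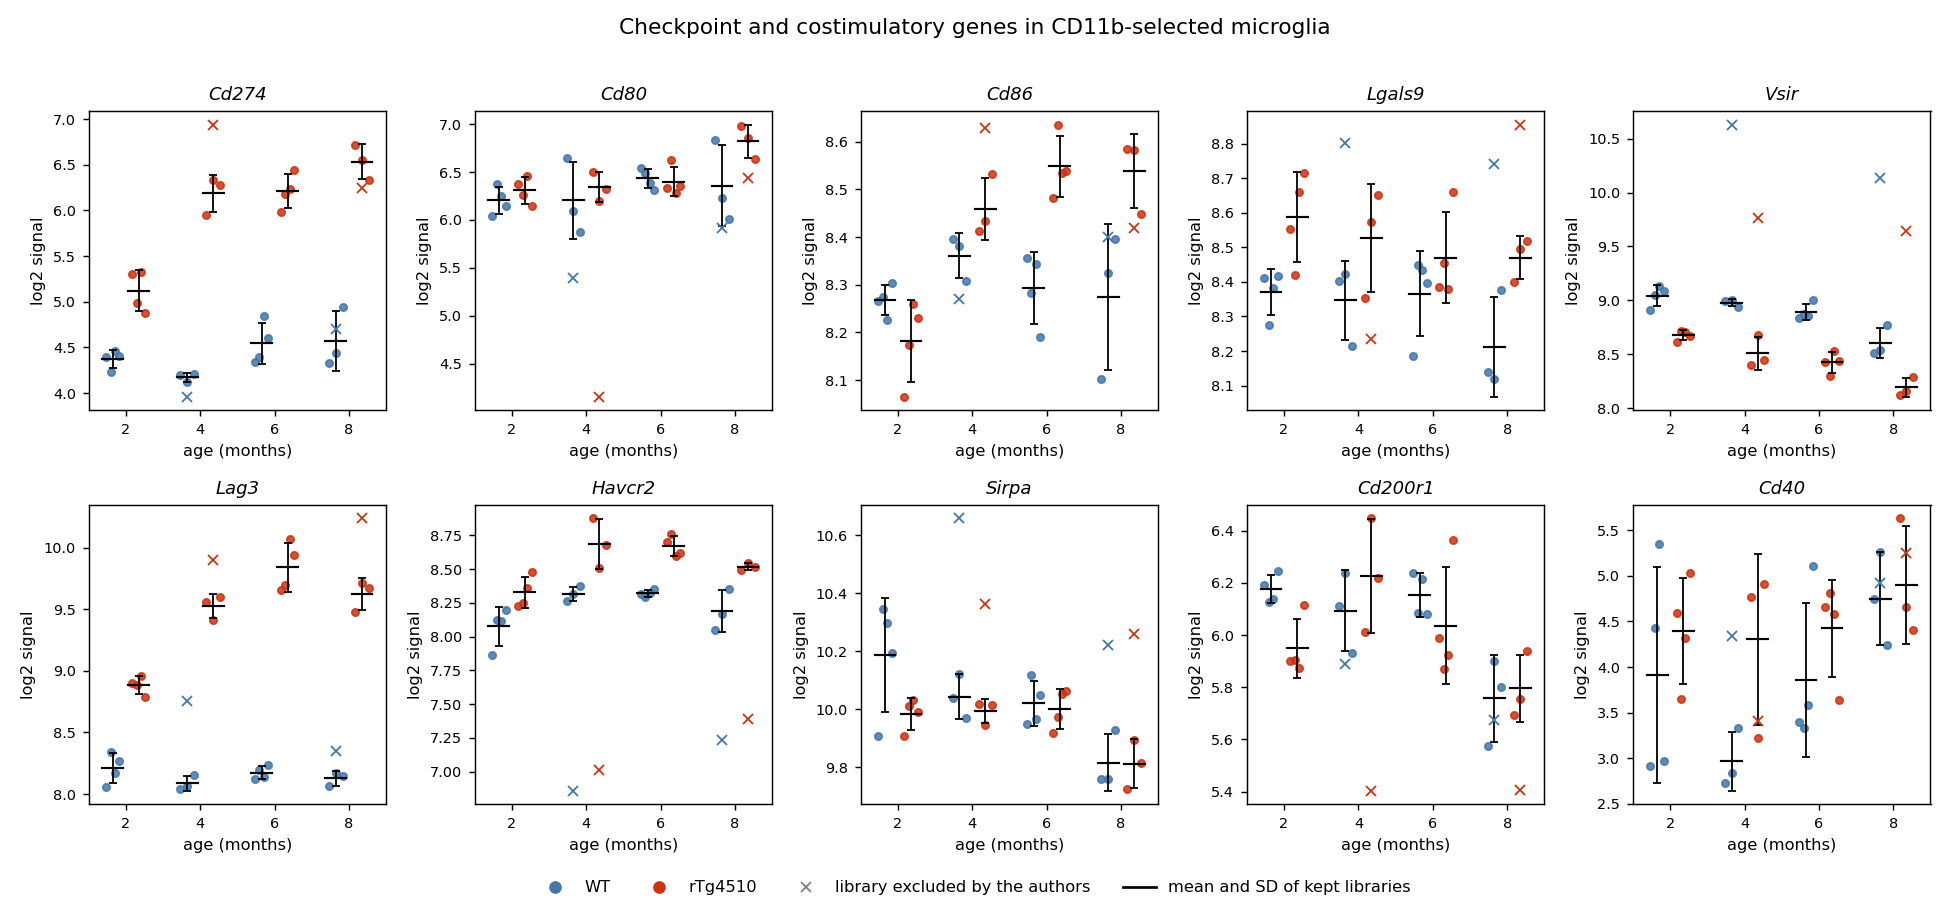
Log2 signal of the 10 genes (vertical axes) by age in months (horizontal axes) in WT (blue) and rTg4510 (red) libraries. Each point is 1 kept library, crosses are the 4 libraries excluded by the authors, and black bars are the mean and SD of the kept libraries. Cd274 and Lag3 stood clear of WT at every age, Vsir lay below WT and Havcr2 above it.

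Cd274 encodes PD-L1, the ligand through which myeloid and other cells dampen T cells that carry PD-1. The gene spans chr19:29362107-29388095 on the plus strand (RefSeq annotation of GRCm38.p6). In WT libraries its log2 signal was 4.40, 4.23, 4.46 and 4.40 at 2 months, 4.20, 4.12 and 4.21 at 4 months, 4.34, 4.40, 4.84 and 4.60 at 6 months and 4.33, 4.44 and 4.94 at 8 months. In rTg4510 libraries it was 5.31, 4.98, 5.32 and 4.87 at 2 months, 5.95, 6.34 and 6.27 at 4 months, 5.99, 6.18, 6.24 and 6.45 at 6 months and 6.72, 6.55 and 6.34 at 8 months. Every rTg4510 library exceeded every WT library of its age, and the rTg4510 libraries of 4 months and older exceeded all 14 WT libraries. The difference was 0.75 ± 0.143 (SE) at 2 months, a 1.68-fold increase (FDR = 0.00197, limma). It reached 2.02 ± 0.165 at 4 months, 1.67 ± 0.143 at 6 months and 1.96 ± 0.165 at 8 months, or 4.04-, 3.18- and 3.90-fold (FDR = 1.15e-08, 7.24e-09 and 1.20e-08).

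The step in Cd274 fell between 2 and 4 months. Within rTg4510 the signal rose by 1.07 ± 0.155 over that interval (FDR = 5.94e-05), whereas WT differed by -0.20 ± 0.155 (FDR = 0.73). The genotype difference itself was larger at 4 than at 2 months by 1.27 ± 0.219 (FDR = 9.51e-04). From 4 to 6 and from 6 to 8 months the rTg4510 signal differed by 0.03 and 0.32, with FDR of 0.97 and 0.35, so the order of the later ages was not resolved. An antisense gene on the opposite strand, which has no value in the table, shares 511 of the 3622 exon bases of Cd274 (14.1%), and the library kit did not mark the strand, so reads of this stretch cannot be assigned to either gene.

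Lag3, at chr6:124904359-124912434 on the minus strand, encodes a relative of CD4 that restrains T cells and binds MHC class II, the molecules on which myeloid cells display antigen. Its WT libraries were steady with age, with log2 signals of 8.06, 8.35, 8.17 and 8.27 at 2 months, 8.04, 8.07 and 8.16 at 4 months, 8.12, 8.20, 8.14 and 8.24 at 6 months and 8.06, 8.17 and 8.15 at 8 months. The rTg4510 libraries read 8.90, 8.89, 8.96 and 8.79 at 2 months, 9.56, 9.42 and 9.60 at 4 months, 9.66, 9.70, 10.07 and 9.94 at 6 months and 9.48, 9.72 and 9.67 at 8 months. All 14 rTg4510 libraries therefore exceeded all 14 WT libraries, from the youngest age on. The difference was 0.67 ± 0.0789 at 2 months (1.59-fold, FDR = 2.45e-05, limma), 1.44 ± 0.0912 at 4 months (2.71-fold, FDR = 3.09e-10), 1.67 ± 0.0789 at 6 months (3.18-fold, FDR = 1.66e-12) and 1.5 ± 0.0912 at 8 months (2.82-fold, FDR = 1.56e-10). Group membership accounted for 98.2% of the variance of Lag3 over the 28 libraries and for 96.3% of that of Cd274, against a median of 48.0% over all genes.

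Lag3 took the same step as Cd274. In rTg4510 it rose by 0.64 ± 0.0853 from 2 to 4 months (FDR = 2.11e-05), and its genotype difference grew by 0.76 ± 0.121 over the same interval (FDR = 4.03e-04). Cd274 and Lag3 were thus the 2 of 10 genes called for the change of the genotype effect between 2 and 4 months (4.66% of all genes) and for the change within rTg4510 over that interval (6.39%). With all 32 libraries the growth of the Lag3 difference was 0.69 (FDR = 0.057) and was not called, and under quantile normalization the rTg4510 change of Lag3 was 0.53 (FDR = 7.77e-05), below 1.5 fold. Cd274 kept its call in both settings. No gene of the 10 was called in any later step: 0 for the genotype effect at 6 against 4 months (0.156% of all genes) and at 8 against 6 months (0%), and 0 for rTg4510 at 6 against 4 months (0.818%) and at 8 against 6 months (0.00538%). In WT none of the 10 was called from 2 to 4 months (0.0484%), from 4 to 6 months (0.00538%) or from 6 to 8 months (0%). At an unadjusted p under 0.05 the numbers of genes in these steps were 0 and 0 for the genotype effect (8.15% and 4.52% of all genes), 1 and 5 for rTg4510 (14.0% and 14.4%), and 1, 1 and 3 for WT (10.2%, 8.65% and 9.78%). Havcr2 and Cd86 rose in rTg4510 from 2 to 4 months by 0.36 ± 0.085 (FDR = 0.0056) and 0.28 ± 0.0607 (FDR = 0.00316), both below 1.5 fold, and with all 32 libraries Havcr2 differed by -0.06 over that interval. The largest of the steps short of the threshold in Lag3 was the rTg4510 change from 4 to 6 months, 0.32 ± 0.0853 (FDR = 0.066).

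Markers of T cells, in which Lag3 is classically studied, were read beside both genes. Cd3e differed by 1.22, -0.32, -0.16 and 1.76 and Lck by 0.05, -0.06, -0.70 and -0.45 at the 4 ages, and neither was called. Cd5 was called higher in rTg4510 by 1.63, 1.14 and 1.52 from 4 months on, but not at 2 months (0.28, FDR = 0.56, limma). Another 5 of the 8 listed T cell markers (Cd3d, Cd3g, Cd2, Cd8a and Cd8b1) had no value in the table. The part of T cell RNA in these results was not tested. In bulk RNA of this kind a change in the number of cells of a type and a change in RNA per cell cannot be told apart.

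A promoter window of Cd274 is shown because this gene had the largest called change of the 10. Those of Vsir and Havcr2 are shown because these genes separated the genotypes at all ages in opposite directions. RefSeq windows of GRCm38.p6, from 250 bases before to 50 bases after a transcript start, were at hand for 5 of the 10 genes (Cd274, Cd80, Lgals9, Vsir and Havcr2). They were searched on both strands for 7 motifs: the interferon-stimulated response element (ISRE) core, the STAT site TTCNNNGAA, the PU.1 site GAGGAAGT, the AP-1 site TGANTCA, the E-box CACGTG, the GC box GGGCGG and the NF-κB consensus. The Cd274 window surrounds a transcript start inside the span given above for the gene, not the first base of that span. The windows lie at chr19:29367188-29367487 on the plus strand (Cd274), chr10:60346601-60346900 on the plus strand (Vsir) and chr11:46454681-46454980 on the plus strand (Havcr2), and capitals mark the matches.
Cd274: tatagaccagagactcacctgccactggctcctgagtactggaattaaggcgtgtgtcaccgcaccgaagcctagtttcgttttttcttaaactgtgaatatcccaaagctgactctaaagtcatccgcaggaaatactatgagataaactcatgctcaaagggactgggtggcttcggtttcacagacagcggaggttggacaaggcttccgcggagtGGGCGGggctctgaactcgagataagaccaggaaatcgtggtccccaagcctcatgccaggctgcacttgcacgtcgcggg
Vsir: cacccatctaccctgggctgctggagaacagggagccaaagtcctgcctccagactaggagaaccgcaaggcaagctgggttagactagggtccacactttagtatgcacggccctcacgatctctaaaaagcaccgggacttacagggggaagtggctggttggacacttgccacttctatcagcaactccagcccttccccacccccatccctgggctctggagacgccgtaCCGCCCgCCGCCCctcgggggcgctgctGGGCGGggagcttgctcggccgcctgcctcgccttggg
Havcr2: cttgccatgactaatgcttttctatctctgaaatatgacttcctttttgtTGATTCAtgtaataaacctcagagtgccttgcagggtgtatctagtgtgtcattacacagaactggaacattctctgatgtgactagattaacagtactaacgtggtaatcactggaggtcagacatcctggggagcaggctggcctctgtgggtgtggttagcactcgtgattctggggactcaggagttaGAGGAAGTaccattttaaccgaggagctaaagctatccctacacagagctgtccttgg
The Cd274 window held 1 GC box and the Vsir window 3, beside 35.7% of the 32841 mouse promoter windows with at least 1. In the Havcr2 window a PU.1 site, the motif of the factor that specifies myeloid cells, ended at the base before the start, and an AP-1 site lay farther upstream. Those motifs were found in 3.2% and 7.81% of all windows. Lgals9 held 2 ISRE cores (3.44% of all windows) and Cd80 1 AP-1 site. No match to the ISRE core or the STAT site was present in the Cd274 window, which says only that these letters are not in these 300 bases.

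Vsir and Havcr2 changed less and in opposite directions. VISTA, encoded by Vsir at chr10:60346851-60430294 on the plus strand, is an inhibitory molecule of resting myeloid cells. In WT its log2 signal was 8.91, 9.05, 9.14 and 9.08 at 2 months, 8.99, 9.0 and 8.94 at 4 months, 8.83, 8.87, 8.86 and 9.0 at 6 months and 8.51, 8.54 and 8.77 at 8 months. In rTg4510 it was 8.61, 8.71, 8.71 and 8.67 at 2 months, 8.40, 8.68 and 8.44 at 4 months, 8.43, 8.30, 8.53 and 8.44 at 6 months and 8.12, 8.16 and 8.29 at 8 months. Every rTg4510 library lay below every WT library of its age. The differences of -0.37 ± 0.0672, -0.47 ± 0.0775, -0.47 ± 0.0672 and -0.41 ± 0.0775 passed the FDR at all 4 ages (FDR = 0.00131, 8.80e-05, 1.08e-05 and 3.15e-04, limma) but stayed below 1.5 fold. Under quantile normalization Vsir passed both thresholds at 4 and 6 months, at -0.63 and -0.61. With the excluded libraries added, its differences were -0.37, -0.57, -0.47 and -0.43 at the 4 ages and failed the FDR at each (0.293 to 0.9995). In those 4 libraries Vsir read 10.63 and 10.13 in WT and 9.76 and 9.64 in rTg4510, above every kept library. Vsir lies inside Cdh23, which runs on the opposite strand, with 0 shared exon bases.

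TIM-3, the product of Havcr2 at chr11:46454931-46481255 on the plus strand, is a receptor of exhausted T cells that microglia also carry. Its WT log2 signals ran 7.87, 8.13, 8.12 and 8.20 at 2 months, 8.26, 8.32 and 8.37 at 4 months, 8.31, 8.30, 8.33 and 8.36 at 6 months and 8.05, 8.17 and 8.36 at 8 months. The rTg4510 libraries read 8.22, 8.25, 8.36 and 8.48 at 2 months, 8.88, 8.51 and 8.68 at 4 months, 8.70, 8.76, 8.60 and 8.62 at 6 months and 8.49, 8.55 and 8.52 at 8 months. Again the genotypes did not overlap at any age, with rTg4510 above. The difference was 0.25 ± 0.0787 at 2 months (FDR = 0.068, limma) and passed the FDR later, at 0.37 ± 0.0909, 0.35 ± 0.0787 and 0.33 ± 0.0909 at 4, 6 and 8 months (FDR = 0.0042, 0.0016 and 0.0096), below 1.5 fold throughout. Under quantile normalization the differences at 6 and 8 months shrank to 0.20 and 0.20 (FDR = 0.054 and 0.12). In the 4 excluded libraries Havcr2 lay between 6.86 and 7.39, below every kept library. With them the differences were 0.25, 0.32, 0.35 and 0.29 at the 4 ages, and the FDR was 0.543 to 0.9995.

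Counted by overlap alone, the libraries of the genotypes were separate for 6, 5, 5 and 6 of the 10 genes at 2, 4, 6 and 8 months, beside 11.0%, 36.6%, 32.8% and 36.7% of all genes. Cd274, Lag3, Vsir and Havcr2 made up 4 of these at each age. The others were Lgals9 and Cd200r1 at 2 months, Cd86 at 4, 6 and 8 months and Lgals9 at 8 months.

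**Figure D2:**
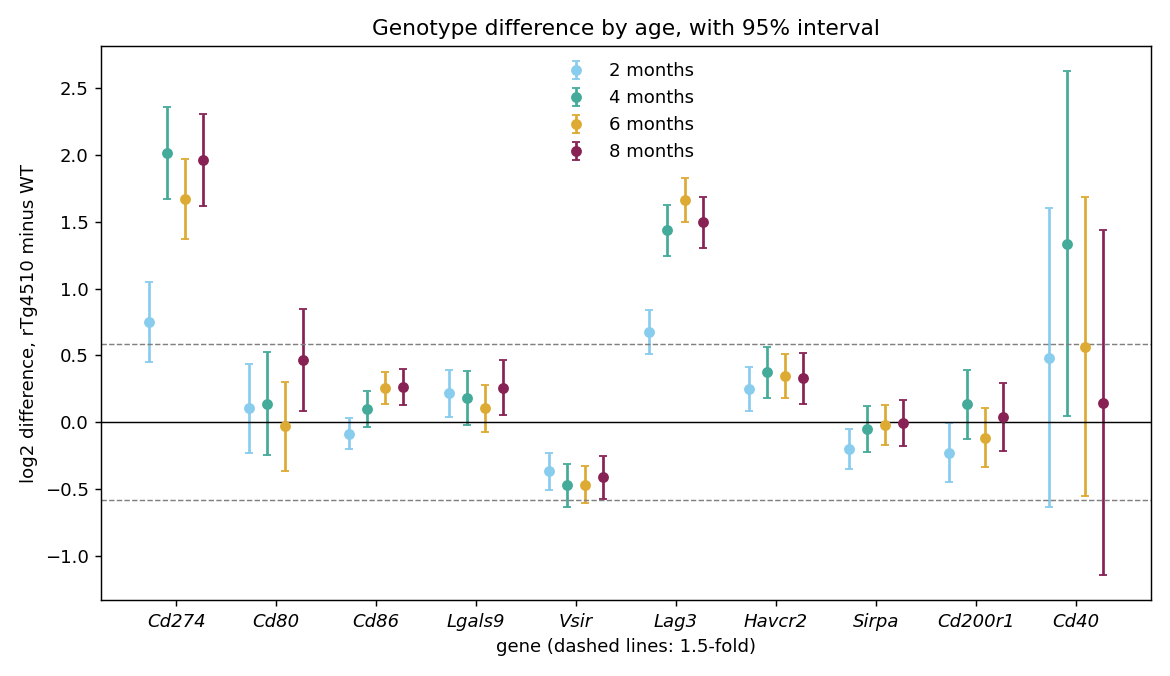
Log2 difference between rTg4510 and WT (vertical axis) for each of the 10 genes (horizontal axis) at 2, 4, 6 and 8 months, with 95% intervals from the model and dashed lines at 1.5 fold. Cd274 and Lag3 lie above the upper line at every age, Vsir lies between 0 and the lower line, and Cd40 has the widest intervals.

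The B7 ligands Cd80 and Cd86, which both engage CD28, lie on chromosome 16. Cd86 (chr16:36568956-36666158, minus strand) read 8.23 to 8.30 in the 4 WT libraries and 8.07 to 8.26 in the 4 rTg4510 libraries of 2 months. At 6 months the WT libraries were 8.36, 8.28, 8.34 and 8.19, and the rTg4510 libraries 8.48, 8.64, 8.54 and 8.54. At 8 months they were 8.10, 8.33 and 8.40 against 8.58, 8.58 and 8.45. The genotypes overlapped at 2 months and were separate from 4 months on, with a difference of -0.09 ± 0.0562 at 2 months, 0.10 ± 0.0649 at 4 months, 0.26 ± 0.0562 at 6 months (FDR = 0.00118, limma) and 0.26 ± 0.0649 at 8 months (FDR = 0.0041). Quantile normalization brought the last 2 differences to 0.12 and 0.13 (FDR = 0.091 and 0.13), so that the increase of Cd86 depended on the scaling. Cd80 (chr16:38457430-38495958, plus strand) did not pass the FDR at any age. Its largest difference came at 8 months, when WT read 6.83, 6.23 and 6.01 and rTg4510 6.98, 6.85 and 6.63. That difference of 0.46 ± 0.184 (95% interval 0.08 to 0.85, FDR = 0.071) was 0.70 and passed (FDR = 0.00494) without WT replicate 1, the WT library that overlapped rTg4510. With the replicate number as a block the difference of 0.46 passed as well (FDR = 0.0267 with a fixed block), below 1.5 fold.

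Lgals9 (chr11:78962979-78984924, minus strand) ranged from 8.12 to 8.72 over the 28 libraries. At 8 months WT read 8.14, 8.12 and 8.38 and rTg4510 8.40, 8.50 and 8.52, without overlap. Its differences were 0.22 ± 0.0844, 0.18 ± 0.0974, 0.10 ± 0.0844 and 0.26 ± 0.0974 at the 4 ages, none of which passed the FDR (0.17, 0.21, 0.37 and 0.057, limma). The difference at 8 months lay close to the threshold: it passed the FDR in 2 of 7 alternatives, with a lowest value of 0.040 under a replicate block with an estimated correlation, and in 5 of 28 repeats that each left out 1 library, but was 0.13 under quantile normalization (FDR = 0.28).

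The 2 receptors for restraining signals from neurons showed no difference that passed the FDR on the deposited scale, and the result for Sirpa depended on the scaling. Sirpa (chr2:129591042-129632228, plus strand) lay between 9.73 and 10.35 in all kept libraries, with differences of -0.20 ± 0.0716 at 2 months (FDR = 0.12, limma), -0.05 at 4 months, -0.02 at 6 months and -0.004 at 8 months. At the last age the 95% interval, -0.18 to 0.17, excluded a change of 1.5 fold in either direction. Under quantile normalization Sirpa was lower by 0.35, 0.31, 0.29 and 0.25 at the 4 ages and passed the FDR at each (FDR = 0.0108, 0.0177, 0.00754 and 0.0481), still below 1.5 fold. Without WT replicate 1 of 2 months the difference at that age was -0.29 on the deposited scale (FDR = 0.0022). Sirpa has close relatives in Sirpb1a, Sirpb1b and Sirpb1c, and whether reads shared between them were counted is not given in the sources used here, so its level is uncertain to that extent. None of these relatives was called at any age. Cd200r1 (chr16:44765736-44794977, plus strand) lay between 5.57 and 6.45, with differences of -0.23 ± 0.106 at 2 months (FDR = 0.28), 0.13 at 4 months, -0.12 at 6 months and 0.04 at 8 months, where the interval of -0.22 to 0.29 also excluded 1.5 fold. Without passing the FDR, Cd200r1 was lower in all WT libraries of 8 months (5.57, 5.90 and 5.80) than in those of 6 months (6.24, 6.09, 6.21 and 6.08). This step was -0.40 ± 0.115 (unadjusted p = 0.0025, FDR = 0.31, limma).

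Cd40 (chr2:165055614-165071654, plus strand), a receptor that activates antigen-presenting cells, had the noisiest signal of the 10 genes, with a residual SD of 0.759 against a median of 0.232 over all genes. It ran from 2.72 to 5.63, and 1 of its values lay within 1 of the floor. At 4 months WT read 2.72, 2.84 and 3.33 and rTg4510 4.77, 3.22 and 4.91, a difference of 1.34 ± 0.619 whose 95% interval ran from 0.05 to 2.63 (FDR = 0.13, limma). It passed only without rTg4510 replicate 2 of that age, at 1.88 (FDR = 0.0499). A change in Cd40 of the size seen in Cd274 at 4 months was therefore not excluded at this precision. At 8 months the 95% interval of Cd40, -1.145 to 1.440, did not reach the Cd274 difference of 1.96.

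Genes for the other side of these pairs were followed too. Of 16 binding partners listed for the 10 genes, 13 were in the table. Of these, beside 1.98%, 13.8%, 19.8% and 15.9% of all genes, 1, 6, 8 and 8 were called at 2, 4, 6 and 8 months. The numbers called higher were 1, 3, 5 and 5 and the numbers called lower 0, 3, 3 and 3, with a median log2 difference over the 13 genes of 0.03, -0.09, -0.08 and 0.13 beside 0.01, -0.04, -0.04 and -0.01 over all genes. Those called were Pdcd1, Pdcd1lg2, Lgals3, Cd44 and Thbs1 (higher) and Ceacam1, Selplg and Cd28 (lower).

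Pdcd1, which encodes the receptor PD-1 itself, was called higher in rTg4510 at every age, as was its ligand Cd274. It was low in WT, at 2.97, 3.23, 2.70 and 2.90 at 2 months and 2.83, 3.33 and 3.17 at 4 months, 1.06 to 1.80 above the floor. The rTg4510 libraries read 4.61, 4.33, 4.53 and 4.21 at 2 months and 5.52, 5.94 and 6.03 at 4 months. At 6 months WT reached 3.68, 4.02, 3.71 and 3.61 and rTg4510 5.45, 5.82, 5.99 and 6.03, and at 8 months 3.53, 3.84 and 3.40 against 5.17, 5.84 and 5.55. The genotypes did not overlap at any age, and the difference of 1.47 ± 0.171 at 2 months was followed by 2.72 ± 0.197, 2.07 ± 0.171 and 1.93 ± 0.197 (FDR = 2.20e-05, 2.04e-09, 4.12e-09 and 1.50e-07, limma). The second PD-1 ligand, Pdcd1lg2 (PD-L2), was more scattered. Its difference of 1.49 ± 0.516 at 2 months did not pass (FDR = 0.11), while those of 1.95 ± 0.595, 3.17 ± 0.516 and 3.09 ± 0.595 at 4, 6 and 8 months did (FDR = 0.021, 5.03e-05 and 4.33e-04). The call at 4 months was lost without rTg4510 replicate 4, WT replicate 1 or WT replicate 2 of that age. At 6 months WT libraries of Pdcd1lg2 lay between 3.53 and 4.71 and rTg4510 libraries between 7.11 and 7.67, an 8.98-fold difference.

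On the CD28 side the direction was the opposite. Cd28, the receptor for Cd80 and Cd86 that T cells use for costimulation, read 5.26, 5.35, 5.22 and 5.81 in WT and 4.24, 4.78, 4.58 and 4.81 in rTg4510 at 6 months. It was lower by 0.81 ± 0.234 there (FDR = 0.0105, limma) and by 1.14 ± 0.270 at 8 months (FDR = 0.00292). At 8 months Cd28 was called in 6 of 7 alternatives (highest FDR = 0.16). At 4 months its difference of -0.75 ± 0.270 passed barely (FDR = 0.0494), in 9 of 28 repeats that each left out 1 library, and at 2 months it was -0.45 (FDR = 0.35). The inhibitory CD28 relative Ctla4 lay 0 to 3.74 above the floor and was not called, with differences from -1.03 to 0.67. Cd40lg had no value in the table.

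Among the partners of Lag3 and Havcr2, Lgals3 (galectin-3, which binds LAG-3) differed by 0.52 at 2 months (FDR = 0.18) and was higher by 2.24 ± 0.241, 2.87 ± 0.209 and 3.0 ± 0.241 at 4, 6 and 8 months, up to 7.99-fold (FDR = 3.86e-07, 6.74e-10 and 6.80e-09, limma). Ceacam1, which pairs with TIM-3, differed by -0.27 at 2 months (FDR = 0.0058, and 0.43 with all 32 libraries), below 1.5 fold. It was lower by 0.96 ± 0.0670, 1.14 ± 0.0580 and 0.99 ± 0.0670 at 4, 6 and 8 months (FDR = 1.30e-09, 4.87e-12 and 6.42e-10). Selplg, the gene for PSGL-1 to which VISTA can bind, was lower by 0.64 ± 0.0967, 0.90 ± 0.0837 and 1.04 ± 0.0967 at 4, 6 and 8 months (FDR = 3.39e-05, 2.48e-08 and 4.38e-08). At 6 months Ceacam1 ranged from 7.54 to 7.70 in WT and from 6.44 to 6.60 in rTg4510, and Selplg from 12.44 to 12.53 and from 11.48 to 11.83, both without overlap. Cd44, a surface receptor that galectin-9 can bind, was higher by 1.22 and 1.38 at 6 and 8 months. With all 32 libraries the Selplg difference at 4 months was -0.38 (FDR = 0.039), below 1.5 fold, whereas quantile normalization enlarged it to -0.56, -1.13, -1.44 and -1.54 at 2, 4, 6 and 8 months, against -0.24 at 2 months on the deposited scale (FDR = 0.10).

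The direct partners of Sirpa and Cd200r1 were not called at any age. They were read in CD11b-selected cells, so their level in neurons was not measured. Cd47, the ligand of Sirpa, was lower by 0.26 ± 0.0652 at 2 months and 0.26 ± 0.0753 at 4 months (FDR = 0.0194 and 0.0136, limma), below 1.5 fold, and differed by -0.17 and -0.12 later (FDR = 0.051 and 0.27). Cd200, the neuronal ligand of Cd200r1, differed by -0.60 to 0.25 and was not called. It lay 1.15 to 4.11 above the floor and was scattered, from 2.80 to 4.49 in WT at 6 months. The other CD200 receptor in the table changed more. Cd200r4, an activating member of the CD200 receptor family, read 3.15, 2.97, 2.62 and 3.54 in WT and 5.73, 5.44, 5.51 and 5.56 in rTg4510 at 6 months. Its difference was 0.47 ± 0.233 at 2 months (FDR = 0.33) and 2.57 ± 0.269, 2.49 ± 0.233 and 2.29 ± 0.269 at 4, 6 and 8 months (FDR = 2.69e-07, 2.53e-08 and 1.03e-06). Cd200r2 and Cd200r3 had no value in the table, and reads shared within the family could not be separated.

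**Figure D3:**
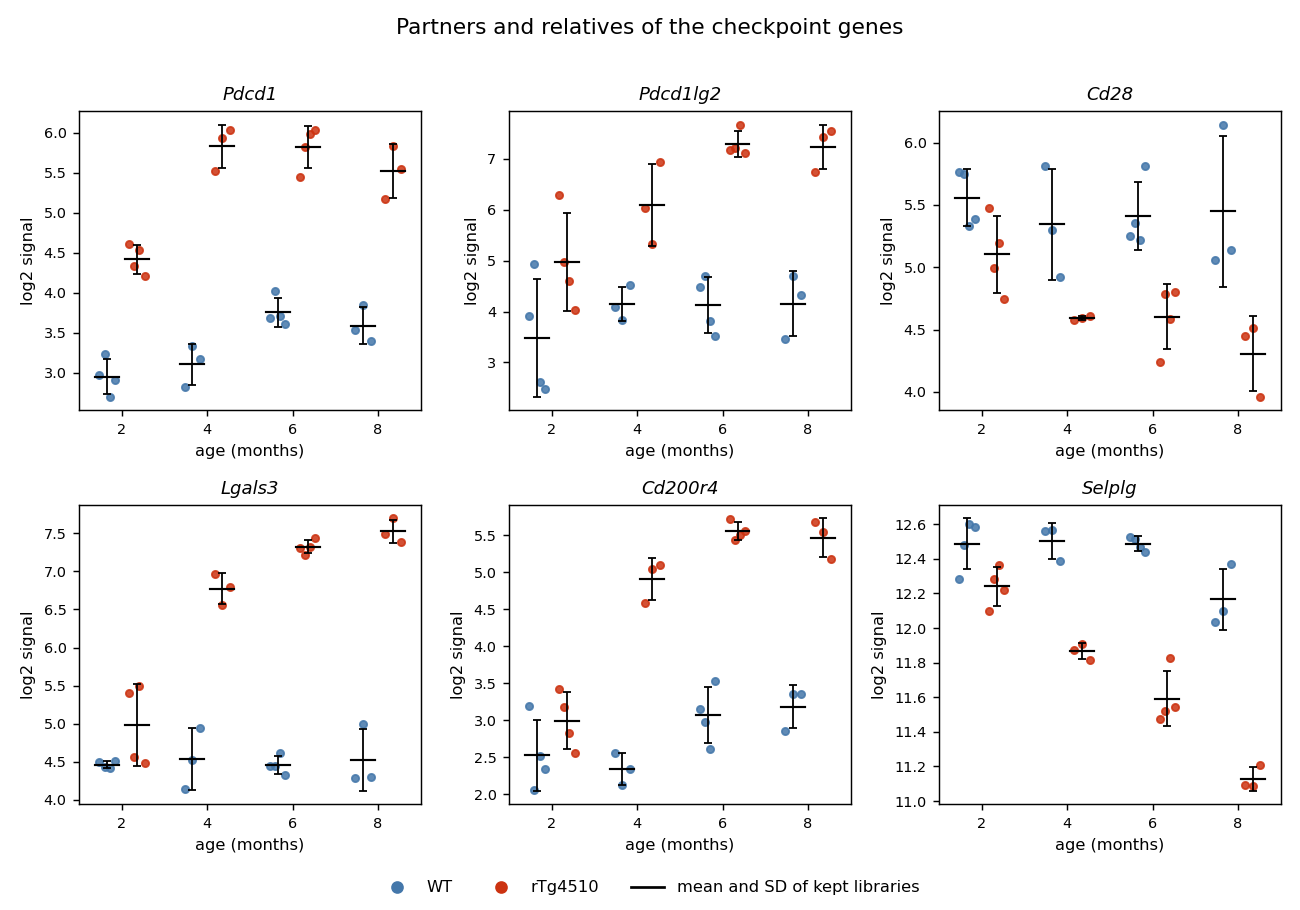
Log2 signal (vertical axes) of 6 partners and relatives by age in months (horizontal axes), in the kept WT (blue) and rTg4510 (red) libraries, with mean and SD. Pdcd1, Pdcd1lg2, Lgals3 and Cd200r4 rise above WT from 4 months at the latest, and Cd28 and Selplg lie below it from 4 months on.

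Of 39 other checkpoint and costimulatory genes, 30 were in the table. The numbers called higher were 1, 6, 5 and 5 at 2, 4, 6 and 8 months and those called lower 0, 1, 3 and 3. The share of all genes called in either direction was 1.98%, 13.8%, 19.8% and 15.9%. Median log2 differences of the 30 genes were 0.08, 0.00, 0.11 and 0.25. Besides Cd200r4, the largest were in TNF-family ligands and an inhibitory receptor. Tnfsf8 (CD30 ligand) was higher at every age, by 1.16 ± 0.181, 1.84 ± 0.209, 1.54 ± 0.181 and 1.56 ± 0.209 (FDR = 3.13e-04, 8.26e-07, 7.05e-07 and 5.68e-06, limma). Its call at 2 months held in 6 of 7 alternatives (highest FDR = 0.074). Tnfsf9 (4-1BB ligand) was higher from 4 months by 1.72, 1.67 and 1.68, and Lilrb4a, an ITIM-bearing receptor of myeloid cells, by 1.75, 1.88 and 1.85 (the highest of these 6 FDR values was 1.79e-04). Cd96 was called at 4 months alone (1.65 ± 0.547, FDR = 0.033), a call lost without any 1 of rTg4510 replicates 1 and 4 and WT replicates 1 and 2 of that age, and differed by -1.12 at 6 months (FDR = 0.074). Btla, the inhibitory receptor of lymphocytes, was lower by 1.07 ± 0.233 and 1.23 ± 0.269 at 6 and 8 months (FDR = 0.0011 and 0.0015). Its call at 8 months held in 6 of 7 alternatives (highest FDR = 0.13).

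Of 19 signalling and surface-level partners, all in the table, 0, 1, 1 and 0 were called, beside 1.98%, 13.8%, 19.8% and 15.9% of all genes. The kinase Ptk2b was higher by 0.59 at 4 months, and Cmtm6, which keeps PD-L1 protein on the cell surface, was lower by 0.62 at 6 months. The call of Ptk2b was lost without rTg4510 replicate 4 or WT replicate 1 or 2 of 4 months, and that of Cmtm6 without rTg4510 replicate 1 or WT replicate 2 of 6 months. In these repeats both genes kept an FDR under 0.05 and fell below 1.5 fold. Ptk2b also passed the FDR at 2, 6 and 8 months, at 0.28, 0.51 and 0.50 (FDR = 0.029, 1.40e-05 and 1.27e-04, limma), below 1.5 fold. At 2 months Ptk2b passed in 23 of 28 repeats, and its FDR was 0.35 with all 32 libraries. Cmtm6 also passed the FDR at 4 and 8 months, at -0.49 and -0.54 (FDR = 0.00115 and 3.68e-04, limma), below 1.5 fold. Under quantile normalization it was called at 4, 6 and 8 months, at -0.84, -1.03 and -0.91. Neither the phosphatases Ptpn6, Ptpn11 and Inpp5d nor the TRAF adaptors of Cd40 were called at any age.

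**Figure D4:**
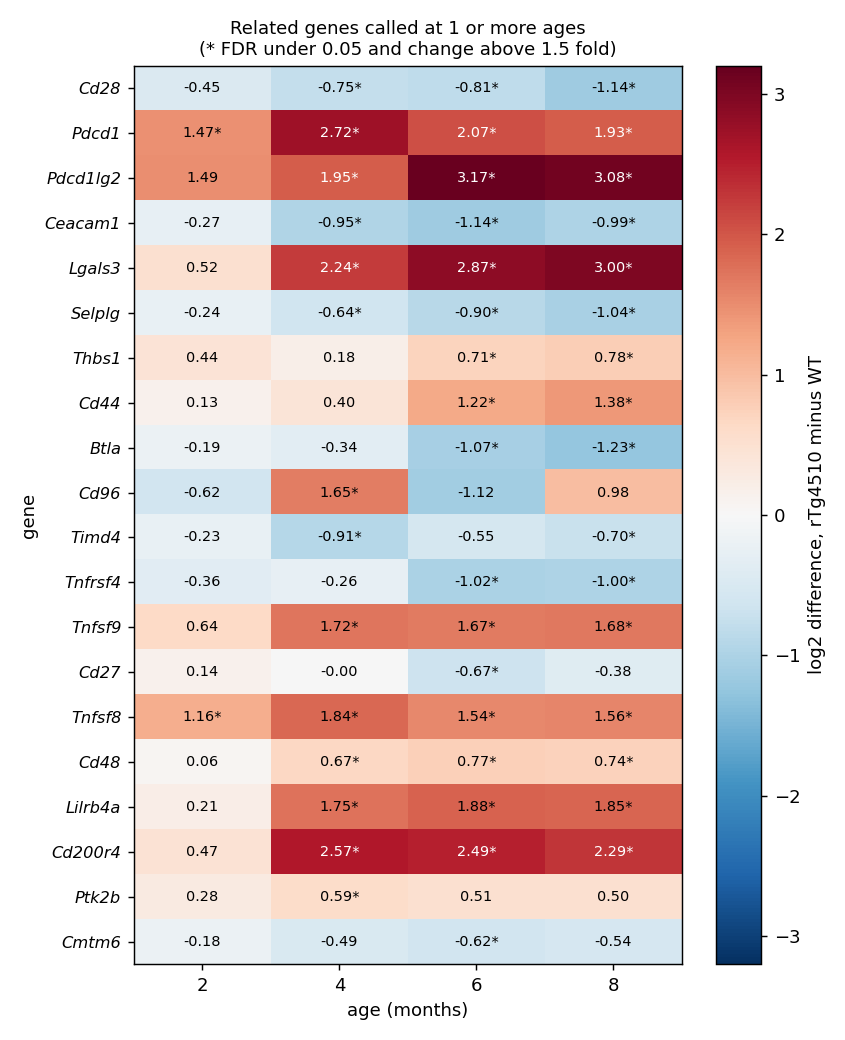
Log2 difference between rTg4510 and WT at 2, 4, 6 and 8 months (columns, color and printed value) for the 20 related genes (rows) called at 1 or more ages, with asterisks at the ages called. Pdcd1 and Tnfsf8 are called at all 4 ages, most others from 4 or 6 months.

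Over the 28 libraries, which share genotype and age groups, the genes most similar to each of the 10 were read from Pearson's r. Cd274 was most like Ctse, Lgals3bp and Spp1 (r = 0.972, 0.972 and 0.971), which encode a protease, a secreted galectin-3-binding protein and osteopontin. Lag3 was most like Eef2 (0.983), a translation elongation factor, a gene with no symbol in the annotation (0.982) and Atp5d (0.982), a subunit of the mitochondrial ATP synthase. For Vsir the nearest were Abi3, Selplg and Gpr34 (0.938, 0.937 and 0.936), so that the nearest genes included its binding partner. Among the genes nearest to Havcr2 were the lysosomal gene Gusb (0.905) and Pik3cb (0.901), and Cd86 was nearest to Clcn7, Sgpl1 and Ms4a6d (0.872, 0.872 and 0.870). The remaining genes had looser neighbors: Lgals9 reached 0.836 with Hnrnpk, 0.802 with Gnai2 and 0.789 with Aif1, Sirpa 0.806 with Slc46a1, 0.785 with Rbbp6 and 0.778 with Csf1r, Cd200r1 0.754 with Gps1, 0.712 with 4930430F08Rik and 0.701 with Yars2, Cd80 0.707 with a gene without symbol, 0.691 with P2ry14 and 0.650 with Slc7a11, and Cd40 0.697 with Mknk2, 0.656 with St8sia1 and 0.655 with Ifnk. Among the 10 genes themselves, Cd274 and Lag3 had r = 0.952, Cd274 and Vsir r = -0.844, and Havcr2 and Lag3 r = 0.806.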

How the data were processed

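Microglia RNA (NuGEN Ovation version 2, which does not mark the strand, and Kapa libraries, per the labels) had been sequenced as 32 libraries in 8 groups. The deposited values are log2 signals per gene that the authors made by adding up exon reads over sequencing runs, dropping exons with few reads, and rolling exons up to genes by robust linear modelling before a median normalization. The submitters' processing notes name the build GRCm38; aligner and annotation are not given in the sources used here. The study's methods give an approximate read number for all samples together, but the table carries no read totals, so the depth of each library is not known here, and the number of libraries limits the precision. Such a rollup weighs exons, so a gene whose exons change unequally can be shifted.

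Genotype, age and replicate came from the labels, and the 28 kept libraries from the methods of the study. With limma 3.58.1 in R 4.3.3, a model of 8 group means without moderation (20 residual degrees of freedom) was fitted to all 18588 genes, and 13 contrasts were tested with Benjamini-Hochberg adjustment within each. These p-values measure the spread between libraries, each a pool of animals. RefSeq (GRCm38.p6) named 95.9% of the Entrez numbers, and overlapping genes came from an annotation of the same build. The genes, lists and motifs were chosen with earlier results of these data known. Named are the 10 genes, up to 6 called genes of largest change per list, direct partners, relatives, overlapping genes and the 3 nearest genes by r, of which 1, like 1 microglia marker, is not reported here. Results of the marker lists for other cell types are given in the closing section.

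Alternatives were all 32 libraries, only the groups compared, a replicate block (fixed, or with an estimated correlation of 0.106), moderated variance, quantile normalization, only genes above the 25th percentile of mean signal, and leaving out each library. Labels give both genotypes the same replicate numbers, without saying what a number marks. Deviations of same-numbered libraries from their group means correlated across genes at 0.131 to 0.153 at 6 months and 0.150 to 0.291 at 8 months. At 2 months these values were 0.065 to 0.167 and at 4 months -0.100 to 0.124. Differently numbered libraries of the 2 genotypes correlated at -0.194 to 0.082, -0.071 to 0.154, -0.127 to 0.091 and -0.259 to -0.028 at 2, 4, 6 and 8 months. The main model left the numbers out, and the block alternatives paired same-numbered libraries at every age. Tested on simulated data of 18588 genes, the fit called 67%, 54%, 65% and 60% of 100 genes changed by 1 on the log2 scale at 2, 4, 6 and 8 months, and 87%, 84%, 90% and 81% of 100 changed by 2, with 0 of the wrong sign. Figures were drawn with matplotlib 3.10.9 in Python 3.11.15.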

Additional observations from a re-analysis of the deposited data

Results flagged for a closer look

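A single library stood apart from the other 3 of its group in 2 of the 40 groups of 4 libraries examined, by Dixon's test at the 95% level, where chance gives about 1 in 20. Cd40 read 5.11 in WT replicate 4 at 6 months, beside 3.33 to 3.59 in the other 3 libraries. Cd200r1 read 6.12 in rTg4510 replicate 4 at 2 months, beside 5.88 to 5.91.

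The genotype effect differed between 2 and 4 months in Cd274, by 1.27 ± 0.219 (SE, FDR = 9.51e-04, limma), and in Lag3, by 0.76 ± 0.121 (FDR = 4.03e-04).

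The excluded rTg4510 libraries, which entered only the fits with all 32 libraries, also read above WT in both genes. They had failed the quality control, and their Vsir and Havcr2 values lay outside those of every kept library. Cd274 read 6.94 in replicate 3 at 4 months, beside at most 4.21 in the 4 WT libraries of that age, and 6.25 in replicate 4 at 8 months, beside at most 4.94. Lag3 read 9.90 and 10.24 in the same libraries, beside WT values of at most 8.75 and 8.35.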

How the results depend on the processing

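The number of the 10 genes called was within 1.5 times the reported count in 83 of 85 alternatives and in all 364 repeats without a library. The exceptions, where the count fell from 2 to 1, were the genotype effect at 4 against 2 months with all 32 libraries (1, Lag3 lost) and rTg4510 at 4 against 2 months under quantile normalization (1, Lag3 lost). This measure includes the comparisons in which none of the 10 genes was called. It also passes over calls that were added. These were Vsir at 4 and 6 months under quantile normalization, Cd40 at 4 months without rTg4510 replicate 2 and Cd80 at 8 months without WT replicate 1. The FDR of Cd274 ranged from 4.25e-10 to 0.0393 and that of Lag3 from 8.71e-14 to 0.0157 over the alternatives of the 4 genotype comparisons, and both were called in all of them. The replicate block changed no call among the 10 genes, but brought 3 differences below 1.5 fold under an FDR of 0.05, that of Cd80 at 8 months and, with the estimated correlation alone, those of Lgals9 at 8 months and Havcr2 at 2 months (FDR = 0.043). Signs turned, far from any threshold, with all 32 libraries for Cd80 (-0.21), Lgals9 (-0.007) and Cd200r1 (-0.022) at 4 months and for Sirpa (0.006) and Cd200r1 (-0.038) at 8 months, and under quantile normalization for Cd86 at 4 months (-0.023) and Lgals9 at 6 months (-0.028). The cause was not tested. Without single libraries the difference of Cd80 ran from -0.028 to 0.36 at 4 months and from -0.11 to 0.008 at 6 months, that of Sirpa from -0.042 to 0.014 at 6 months and from -0.045 to 0.052 at 8 months, that of Cd40 from -0.22 to 0.40 at 8 months and that of Cd200r1 from -0.054 to 0.11 at 8 months. Of all genes called at 2 months, 293 were higher and 75 lower, and 213 and 99 under quantile normalization. The background counts of 368, 2564 and 2950 genes called at 2, 4 and 8 months fell to 244, 1561 and 1854 in fits of the 2 groups alone, which have fewer libraries, and that at 2 months to 165 with all 32 libraries. Those of the age steps moved likewise. The 29 genes of the genotype effect at 6 against 4 months became 6 with all 32 libraries, 5 with the compared groups alone, 11 and 52 with a fixed and an estimated replicate block, 13 under quantile normalization and 7 above the 25th percentile. For rTg4510 the compared groups alone gave 666 in place of 1187 (4 against 2 months) and 1 in place of 152 (6 against 4 months, 82 above the 25th percentile), and the 1 gene at 8 against 6 months became 0 to 32. In WT 9 became 0 to 19 (4 against 2 months) and 1 became 0 to 3 (6 against 4 months). The restriction to 13941 genes above the 25th percentile of mean signal left Cd40 without a value.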

Other observations

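Markers of cells other than microglia were read in the same libraries. The counts called stand beside 1.98%, 13.8%, 19.8% and 15.9% of all genes called at 2, 4, 6 and 8 months. Of 6 neutrophil markers (S100a8, S100a9, Ly6g, Camp, Ngp and Retnlg) 5 were called lower in rTg4510 at 6 and at 8 months, with summed log2 signals of 9.0 to 10.24 in WT and 7.37 to 8.10 in rTg4510 at 6 months. B cell markers were called lower at 4 months (2 of 4), border macrophage markers at 6 months (2 of 7) and dendritic cell and monocyte markers at 4, 6 and 8 months (2, 1 and 1 of 8). Among 5 NK cell markers the surface receptor Klrb1c was higher at all ages, by 0.89 ± 0.248, 1.94 ± 0.287, 2.31 ± 0.248 and 1.53 ± 0.287 (FDR = 0.035, 2.55e-05, 1.95e-07 and 3.13e-04, limma), whereas 0, 1, 3 and 0 of the others were called lower. Astrocyte markers were called higher and lower (1 and 1 of 4 at 6 months, 1 and 2 at 8 months), endothelial markers likewise (1 and 1, 1 and 2, and 1 and 1 of 4 from 4 months), neuron markers lower at 6 months (1 of 2), and 0 of 5 oligodendrocyte markers were called. Microglia markers themselves were called lower, 1, 2, 3 and 3 of 8 at the 4 ages, and 0 higher. The part of these cells in the differences of the 10 genes was not tested.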
